A study of Mus musculus with 8 samples.

Results

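Mouse introns of at most 100 bp were followed in polyadenylated RNA of monocytes and their bone marrow precursors. An intron was taken when all 8 deposited intron tables listed it, when each table classed it as clean and when every library held at least 20 reads on it, counting reads across its boundaries and spliced reads. This gave 3345 introns in 1754 genes, called short introns here. They make up 5.10% of the 65553 clean introns of any length, in 7011 genes, that met the same read minimum. All tables listed 10867 introns of at most 100 bp, of which 3818 were not clean in every table and 3704 were clean but under the read minimum. The 62208 clean introns over 100 bp that met the minimum are called longer introns.

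The knockout group is 2 libraries of Ly6Chi monocytes with a knockout of Upf2, set against 2 libraries of control Ly6Chi monocytes. The control stages are MDP (1 library), cMoP (2 libraries), these Ly6Chi monocytes and Ly6Clo monocytes (1 library). In this field MDP names the progenitor shared by monocytes and dendritic cells, and cMoP its monocyte-committed successor. Monocytes are split by the surface marker Ly6C into those with high levels (Ly6Chi) and low levels (Ly6Clo). All controls are labelled wild type by genotype, and the cMoP and Ly6Chi controls are also described as FL_FL, the usual notation for a floxed allele. All cells are labelled untreated and healthy. Neither age and sex of the mice nor the Cre that made the knockout could be taken from the labels. A tag names a monocytic cell line, whereas the growth protocol names primary cells and the source names bone marrow. Nothing in the labels says that the replicates came from separate animals, so the p-values measure the spread between these samples, which may be technical.

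The spliceosome removes an intron after recognising its 5′ splice site, its branch point and its 3′ splice site. In a very short intron these elements lie close together, and the splice sites are thought to be paired across the intron. A retained intron in coding sequence often brings a premature stop codon, and nonsense-mediated decay, for which Upf2 encodes a core factor, degrades many such transcripts.

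The sequences of 12 short introns follow, since they show how little separates the splice sites and where a reading frame that runs into the intron meets a stop. Each is given 5′ to 3′ on the sense strand of build GRCm38, as read from transcripts of GENCODE mouse release 21. Capitals mark the first 2 bases, the last 2 bases and the first stop codon in the frame of the upstream exon. The most retained short introns with a sequence come first, of Slc1a5 (chr7:16795953-16796023, plus strand), 1110038F14Rik (chr15:76948545-76948628, plus), Pidd1 (chr7:141440154-141440230, minus) and Rabggta (chr14:55719143-55719239, minus).
Slc1a5: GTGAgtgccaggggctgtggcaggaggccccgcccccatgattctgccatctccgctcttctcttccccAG
1110038F14Rik: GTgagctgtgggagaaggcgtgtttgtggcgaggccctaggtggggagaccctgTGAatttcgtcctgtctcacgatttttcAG
Pidd1: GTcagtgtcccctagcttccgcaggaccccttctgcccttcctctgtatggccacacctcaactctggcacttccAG
Rabggta: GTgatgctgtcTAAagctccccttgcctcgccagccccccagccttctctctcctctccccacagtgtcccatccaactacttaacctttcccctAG
The frame of Slc1a5 meets TGA from base 2 of the intron, that of 1110038F14Rik meets TGA at base 55 and that of Rabggta meets TAA at base 12. Pidd1 intron 10 has no stop in frame, and its 77 bp would shift the frame downstream.

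The next 3 show the lower end of the length range, in Mdp1 (chr14:55660099-55660167, minus), Ddx3y (chrY:1264959-1265027, minus) and Nbr1 (chr11:101562241-101562296, plus).
Mdp1: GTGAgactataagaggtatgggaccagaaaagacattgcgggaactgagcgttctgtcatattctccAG
Ddx3y: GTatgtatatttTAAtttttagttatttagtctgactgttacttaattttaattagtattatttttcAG
Nbr1: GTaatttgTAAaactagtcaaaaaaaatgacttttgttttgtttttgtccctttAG
The frames of Mdp1, Ddx3y and Nbr1 meet a stop at bases 2, 13 and 9. No spliced read joined exactly the listed ends of the Nbr1 intron, as given below, so its marked ends were not seen in use here. The last 5 are among the introns with the lowest p in a comparison of groups, in Copg1 (chr6:87893954-87894040, plus), Slc44a2 (chr9:21342867-21342963, plus), Sirt2 (chr7:28776900-28776995, plus), Hnrnpa3 (chr2:75661818-75661895, plus) and Ppia (chr11:6418132-6418225, plus).
Copg1: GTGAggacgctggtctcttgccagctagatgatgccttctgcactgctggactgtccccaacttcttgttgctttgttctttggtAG
Slc44a2: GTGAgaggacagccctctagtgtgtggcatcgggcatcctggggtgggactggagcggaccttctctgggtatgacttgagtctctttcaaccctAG
Sirt2: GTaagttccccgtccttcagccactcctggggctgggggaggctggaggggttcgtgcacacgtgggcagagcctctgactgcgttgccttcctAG
Hnrnpa3: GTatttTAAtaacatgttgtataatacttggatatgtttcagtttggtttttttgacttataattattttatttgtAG
Ppia: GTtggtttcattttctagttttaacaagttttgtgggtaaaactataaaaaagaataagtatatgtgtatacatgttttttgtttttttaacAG
The introns of Sirt2 and Ppia meet no stop in frame, while that of Hnrnpa3 meets TAA at base 7. Of these 12, the introns of Pidd1, Rabggta, Mdp1 and Ddx3y lie outside the rule for printed sequences and were chosen after their values were seen, and so were the introns other than that of Copg1 among the last 5.

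The libraries held 1673316 to 2543115 spliced reads and 77333 to 130826 boundary reads on short introns, with a median per intron of 184 to 235 spliced and 6 to 12 boundary reads. Replicate 2 of cMoP stood apart, with the most spliced reads and the fewest boundary reads. It also had the strongest lean of spliced reads towards the 3′ end of genes, a median log2 ratio of 0.94 over 5316 genes, against 0.88 and 0.63 in the knockout and 0.39 to 0.66 in the other 5 libraries. Summed markers of each stage were highest in that stage, and 5 T and NK cell markers summed to at most 1.51 TPM anywhere. The 9 neutrophil markers summed to 4860 TPM in Ly6Clo and to 292 to 2249 TPM elsewhere, and 6 B cell markers summed to 265 to 751 TPM. In Ly6Clo, 5 macrophage markers summed to 573 TPM, against 134 and 130 TPM in Ly6Chi, 5 dendritic cell markers to 178 TPM, against 19.1 and 19.4 TPM, and 4 erythroid markers to 188 TPM, against 21.1 and 112 TPM. Their part in the results was not tested. The 6 Ly6Chi markers summed to 27798 and 28137 TPM in the knockout, against 44662 and 46664 TPM in control Ly6Chi. Most of that sum is Lyz2, with 20168 and 19792 TPM in the knockout, against 36103 and 38197 TPM in Ly6Chi, and 2 of the 6, Ly6c2 and Vcan, had log2 differences of the other sign (0.31 and 0.46; limma adjusted p = 0.42 and 0.39). In such bulk samples, fewer cells of a type and less RNA per cell cannot be told apart. Upf2 itself had 20.4 and 22.5 TPM in the knockout and 20.2 and 18.2 TPM in Ly6Chi, a log2 difference of 0.15 ± 0.15 (SE, n = 2 each, limma adjusted p = 0.60). Spliced reads across Upf2 intron 2, between the exons that the labels' primers cover, numbered 10 and 13 in the knockout, against 41 and 45 in Ly6Chi and 16 in cMoP replicate 2, the library with the strongest lean. The median over 19 later Upf2 junctions was 84 and 96 reads in the knockout, against 87 and 79 in Ly6Chi and 76 in cMoP replicate 2.

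Short introns were 53 to 100 bp long, with a median of 87 bp. Only 33 of them were under 70 bp and 5 under 60 bp. By position, 3228 (96.5%) lay in coding sequence, 31 in 5′ untranslated, 8 in 3′ untranslated and 78 in non-coding parts, and all 3345 matched an annotated intron. They clustered in genes: 1069 genes held 1 short intron and 113 genes held at least 5. Flna, which encodes the actin cross-linker filamin A, held 22 short introns among its 48 clean introns, Abca2, a lipid transporter gene, 19 of 37, and Sbf1, which encodes a phosphatase-like membrane regulator, 19 of 38. At the length limit, the 103 introns of exactly 100 bp had a median retention ratio of 0.0023 to 0.0098 over the 8 libraries, and the 93 introns longer by 1 bp one of 0.0025 to 0.013.

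Short introns were retained more often than longer introns taken as 1 class in all 8 libraries. Retention was read from the deposited ratio, the coverage of the intron divided by that coverage plus its spliced reads, and an intron with a ratio of at least 0.1 counted as retained. Of the short introns, 7.44% and 8.25% were retained in the knockout, 8.37% in MDP, 7.77% and 3.29% in the cMoP libraries, 9.81% and 10.8% in Ly6Chi and 12.3% in Ly6Clo. Of the longer introns, 2.95% and 3.52% were retained in the knockout, 5.87% in MDP, 4.19% and 1.42% in the cMoP libraries, 5.84% and 5.45% in Ly6Chi and 7.89% in Ly6Clo. Ly6Clo was highest and cMoP replicate 2 lowest in both classes. Wilson 95% intervals of the short introns' shares, which cover counting error over introns only, ran from 2.74% to 3.95% in cMoP replicate 2 and from 11.2% to 13.4% in Ly6Clo.

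Retention recurred at the same introns: the ranks of the ratios of 2 libraries over the 3345 introns correlated with a Spearman rho of 0.72 to 0.85, as a description over introns. In all, 81 short introns (2.42%) were retained in all 8 libraries, against 1.16% of longer introns. Another 2780 were retained in none.

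Reads that cross an exon-intron boundary, U, gave the same direction when set against spliced reads, S. The median log2(U/S) of short introns minus that of longer introns was 0.49 and 0.58 in the knockout, 0.30 in MDP, 0.35 and 0.32 in the cMoP libraries, 0.46 and 0.51 in Ly6Chi and 0.40 in Ly6Clo. The mean over the 8 libraries was 0.43 ± 0.10 (SD, n = 8), positive in 8 of 8, with a two-sided exact sign-flip p of 0.0078, the smallest that 8 libraries can give. All 8 libraries are scored on the same introns, so this p and later ones of the same test cover the libraries only. One read of 100 bp can cross both ends of a short intron and then counts at each. Counting only the smaller end, doubled, gave 0.98, and counting only the larger end gave 0.28.

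**Figure D1:**
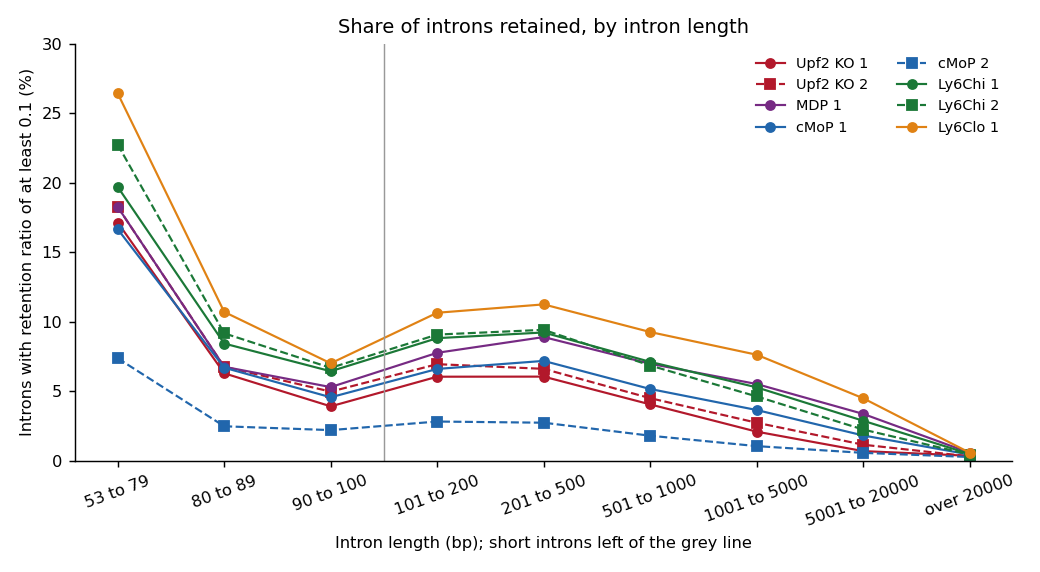
Share of introns with a deposited retention ratio of at least 0.1 (y axis, %) against intron length class (x axis, bp) in 8 libraries, 1 line each, with replicate 2 dashed. The class of 53 to 79 bp is highest in every library, between 7.37% in cMoP replicate 2 and 26.4% in Ly6Clo, and introns of 90 to 100 bp lie below those from there to 200 bp.

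The share retained was largest at the lower end of the length range. By the mean ratio over libraries, 111 of the 624 introns of 53 to 79 bp (17.8%) were retained, 6.76% of the 1494 of 80 to 89 bp and 54 of the 1227 of 90 to 100 bp (4.4%), beside 4.35% of the longer introns. Of the 33 introns under 70 bp, 14 (42.4%) were retained. Length and mean ratio correlated over the 3345 introns with a Spearman rho of -0.27, again as a description over introns that share genes and libraries.

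Set against longer introns of their own gene, the difference of all short introns lay near 0. The median over 3320 short introns in 1732 genes of log2(U/S) minus the median of the gene's longer introns averaged 0.00096 ± 0.052 (SD, n = 8 libraries), positive in 4 of 8, with an exact sign-flip p of 0.945. The libraries ranged from -0.078 in MDP to 0.094 in knockout replicate 2. Split by length, the same difference was 0.46 to 0.75 for 620 introns of 53 to 79 bp, above 0 in 8 of 8 libraries. It was -0.15 to 0.025 for 1485 introns of 80 to 89 bp and -0.37 to -0.069 for 1215 introns of 90 to 100 bp (below 0 in 8 of 8). With 80 bp as the upper length, 753 introns gave 0.57 against introns over 80 bp of the same gene, with an exact sign-flip p of 0.0078. With 120 bp it was -0.12, against introns over 120 bp of the same gene, with the same p.

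**Figure D2:**
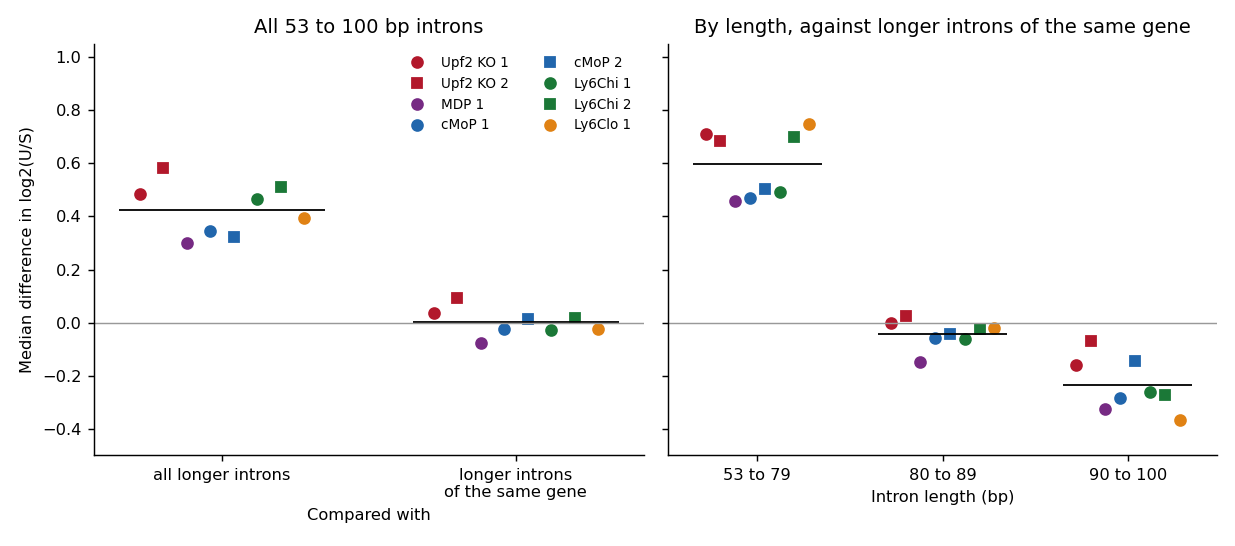
Median difference in log2(U/S), boundary over spliced reads, in each of 8 libraries (points, replicate 2 as squares), with the mean of the libraries as a line. Left, short introns minus all longer introns (mean 0.43) and minus longer introns of the same gene (mean 0.00096); right, the difference within genes by intron length, 0.60 on average at 53 to 79 bp and -0.24 at 90 to 100 bp.

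Not every listed short intron was in use. The tables also count spliced reads that join exactly the 2 listed ends, and 166 short introns (4.96%) had under 50% of their spliced reads on that exact junction, as did 15% of longer introns. Under 70 bp it was 11 of 33 introns (33.3%), while the classes of 53 to 79, 80 to 89 and 90 to 100 bp had 5.61%, 3.55% and 6.36%. Of the 5 shortest, 4 were of this kind. The 53-bp intron of Adrbk1, a receptor kinase gene, had 0 exact junction reads among 12401 spliced reads, that of Arhgap27 1 of 1889, the 55-bp intron of Ap5z1 15 of 545 and the 56-bp intron of Nbr1, an autophagy receptor gene, 0 of 1109. The 86-bp intron of a non-coding Actb transcript had 4 exact reads among 218444. Ratios of these introns set boundary reads beside the spliced reads of other junctions. Without the 166, the 22 introns under 70 bp included 13 retained ones (59.1%), and their difference from longer introns of the same gene averaged 1.82 log2 units, against 1.03 for all 33. The difference from all longer introns, likewise restricted, was 0.47.

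Hnrnph1 intron 7, at 56 bp, was the shortest intron that was spliced at its listed ends, with 10775 exact reads among 11167. The gene encodes a splicing regulator that binds G runs. Its ratio was 0.19 and 0.17 in the knockout, 0.11 in MDP, 0.16 and 0.059 in the cMoP libraries, 0.18 and 0.22 in Ly6Chi and 0.16 in Ly6Clo. cMoP replicate 2 was lowest and Ly6Chi replicate 2 highest, and the knockout lay among the controls. The next in length, in Scrib (65 bp) and in Cpsf1, Gramd4 and Mau2 (66 bp each), had mean ratios of 0.11 to 0.16. Mdp1 intron 2, at 69 bp, reached 0.41 on average, between 0.37 and 0.49 in the 8 libraries.

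The most retained short introns kept high ratios in every library. Hmgxb3 intron 7 (96 bp, on chromosome 18) averaged 0.59, with 0.61 and 0.57 in the knockout, 0.62 in MDP, 0.55 and 0.57 in the cMoP libraries, 0.65 and 0.68 in Ly6Chi and 0.43 in Ly6Clo. Slc1a5 intron 7 (71 bp), in the gene of a glutamine transporter, had 0.59 and 0.61 in the knockout, 0.58 in MDP, 0.51 and 0.46 in the cMoP libraries, 0.45 and 0.50 in Ly6Chi and 0.69 in Ly6Clo. Ly6Clo was thus lowest for Hmgxb3 and highest for Slc1a5. Depth differed between the 2, with 282 spliced reads over all libraries at Hmgxb3 and 2598 at Slc1a5.

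1110038F14Rik intron 1 (84 bp) averaged 0.55 on 221 spliced reads, and its libraries ranged from 0.44 in knockout replicate 2 to 0.68 in Ly6Chi replicate 1. Pidd1 intron 10 (77 bp), in the gene of a caspase-activating scaffold, averaged 0.52, and Rabggta intron 10 (97 bp), in the gene of a Rab prenyltransferase subunit, 0.47. Both were lowest in cMoP replicate 2, at 0.36 and 0.23. The knockout libraries were the 2 highest of the 8 for Pidd1, at 0.60 and 0.60, and lay among the controls for Rabggta, at 0.48 and 0.48.

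**Figure D3:**
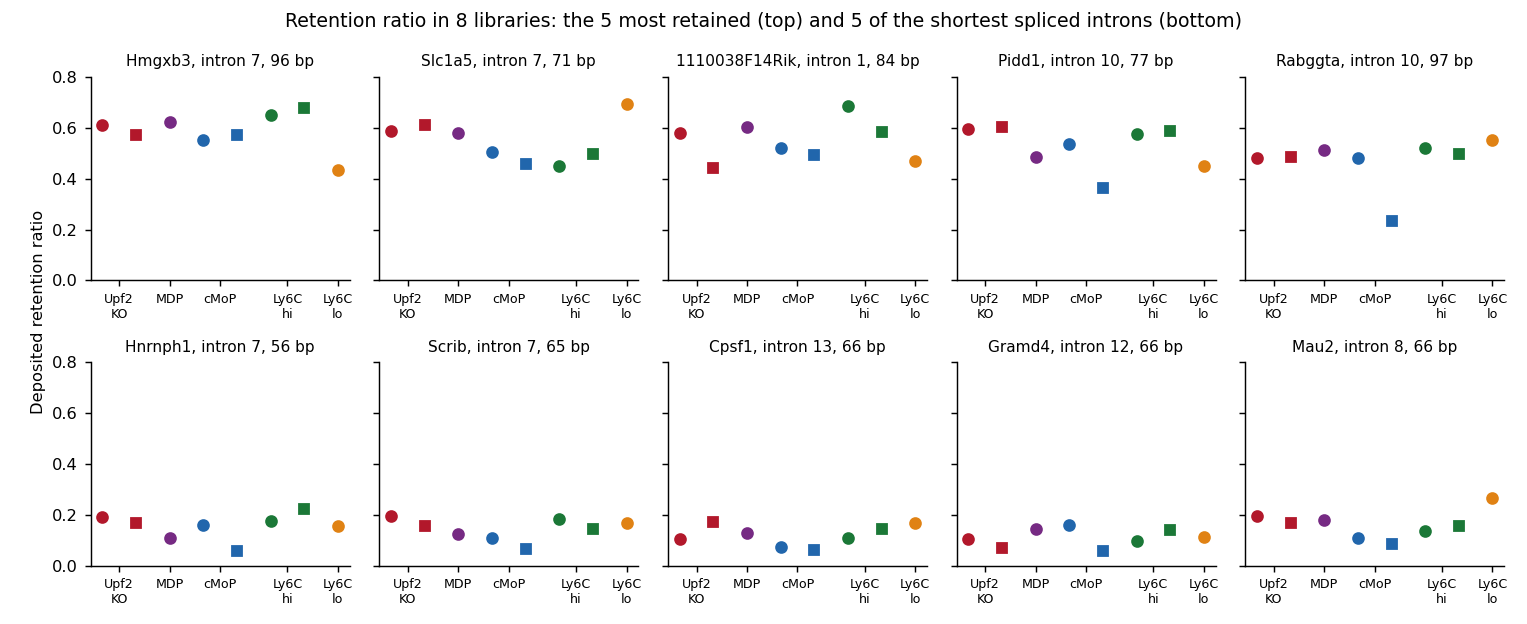
Deposited retention ratio (y axis, 0 to 0.8) in 8 libraries (points by group, replicate 2 as squares) of the 5 most retained short introns (top) and of the 5 shortest that were spliced at their listed ends (bottom). The top row spans 0.23 to 0.69, lowest at Rabggta in cMoP replicate 2, and the bottom row 0.058 to 0.27.

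At the other end, 100-bp introns of Cluh, of the dynein heavy chain gene Dync1h1 and of the kinesin gene Kif13a had a ratio of 0 in all 8 libraries, on 618 to 2157 spliced reads. Dync1h1 still had 6 to 19 boundary reads in each library, since depth inside the intron, not at its ends, makes the ratio. The most spliced short introns lay in Eef1a1, which encodes a translation elongation factor, with 628738 spliced reads and a mean ratio of 0.0018, and in Actb, which encodes beta-actin, with 219349 spliced reads and 0.0024.

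The 3 genes richest in short introns showed no common difference between their short and longer introns. Flna had 5.08 and 5.29 boundary reads per 100 spliced reads on its short introns in the knockout and 5.56 and 5.79 in Ly6Chi, beside 5.32 and 5.28 on its longer introns in the knockout and 5.66 and 5.82 in Ly6Chi. Sbf1 had fewer on its short introns, 5.15 and 6.92 in the knockout and 6.02 and 8.90 in Ly6Chi, than on its longer ones, 9.97 and 11 in the knockout and 12.1 and 12.7 in Ly6Chi. These values pool the reads of all introns of a class. The median retention ratio of its short introns was higher in the knockout, 0.0079 and 0.010, beside 0.00035 and 0.0041 on longer ones. In Ly6Chi it was 0.011 and 0.021, beside 0.013 and 0.0096. Abca2 had 6.30 and 7.83 on its short introns in the knockout and 6.58 and 8.5 in Ly6Chi, beside 4.83 and 4.53 on its longer ones in the knockout and 6.53 and 6.18 in Ly6Chi.

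Sequence could be read for 510 short introns (15.2%), those that an annotated transcript spans, most often one annotated as retaining the intron. These are therefore not a random part: 23.5% of them were retained, against 5.15% of the other 2835. Of the 510, 504 (98.8%) begin with GT and end with AG, and 4 begin with GC and end with AG. Their median GC content was 55.8%, beside 54.2% in 591 longer introns of up to 200 bp with sequence. The retained share was 14.1% in the third of lowest GC content, 27.1% in the middle and 29.4% in the third of highest, and GC content and mean ratio correlated with a Spearman rho of 0.21 over the 510, as a description. Runs of GGG were found in 73.1%, beside 85.8% of those 591, which offer more bases for a match.

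Most of these introns would end a reading frame that entered them. Of 486 coding introns with sequence, 336 (69.1%) held a stop in frame. In 79 the stop spans bases 2 to 4, as in Slc1a5, Mdp1, Copg1 and Slc44a2, all among the 114 introns that interrupt a codon after its second base, so that a GTGA or GTAA start reads as a stop. Retained shares were 22.9% of the 336 with a stop in frame and 14.7% of the 34 that were open, that is, without one and of a length divisible by 3. The median of the mean ratio went the other way, at 0.037 with a stop and 0.041 for the open ones. In MDP the retained share did so too (22.3% and 23.5%), while in the other libraries it was higher with a stop. Of all short introns, 32.3% had a length divisible by 3, beside 33.4% of longer ones.

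In genes of splicing factors, a list of 38 genes that act in splice site recognition or its control, 19 genes held short introns. Over all short introns, 7.95% had a mean ratio of at least 0.1. Within these 19 genes 3 introns reached it, given as a count and not as a share. They were the 56-bp intron of Hnrnph1 (0.16), intron 23 of Rbm5 (79 bp, 0.20), a splicing regulator, and intron 12 of Clk4 (77 bp, 0.12), a kinase of SR proteins. Rbm5 intron 23 had 0.16 and 0.20 in the knockout, 0.14 in MDP, 0.22 and 0.13 in the cMoP libraries, 0.25 and 0.29 in Ly6Chi and 0.18 in Ly6Clo, so that both Ly6Chi libraries exceeded all others. Clk4 intron 12 stayed between 0.098 and 0.13 in all 8. Introns of Sf3b1 and Prpf8, core spliceosome genes, were low, with means of at most 0.0030 over the 4 in Sf3b1 and at most 0.024 over the 6 in Prpf8.

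The share of short introns retained lay lower in both knockout libraries than in both control Ly6Chi libraries. So did that of longer introns, at 2.95% and 3.52% in the knockout, against 5.84% and 5.45% in Ly6Chi. For short introns the share averaged 7.85% ± 0.57 in the knockout and 10.3% ± 0.70 in Ly6Chi (SD, n = 2 each), a difference of -2.45 points. Spliced reads in the knockout showed more 3′ lean than those in Ly6Chi (0.88 and 0.63, against 0.43 and 0.47), and the sum of its Ly6Chi markers was lower. Their part in this difference was not tested. The two-sided exact permutation p was 0.33, the smallest that 2 against 2 allows. Of the 2823 short introns with at least 20 boundary reads over all libraries, which could be tested, 883 (31.3%) had log2(U/S) below both Ly6Chi libraries in both knockout libraries and 317 (11.2%) above, beside 37.0% and 9.93% of all 48132 introns tested. The median log2 change of U relative to S was -0.22 for short and -0.32 for longer introns.

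No short intron passed edgeR's quasi-likelihood test for the knockout at an adjusted p under 0.05, where 1 of all introns did (0.00208%). At an unadjusted p under 0.05 there were 124 short introns (4.39%), beside 6.94% of all. DESeq2 called 0 short introns as well, beside 0.0104% of all, with 54 (1.91%) at an unadjusted p under 0.05, beside 3.19% of all. After TMM scaling of U and S apart, which removes an overall shift between groups, 0 short introns passed, beside 0.129% of all. All groups share 1 estimate of the spread. Without cMoP replicate 1, which is not part of the comparison, 15 short introns passed (0.531%, beside 0.964% of all), and without cMoP replicate 2 13 did (0.461%, beside 0.904%).

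Those nearest to the threshold are given as values. Kpnb1 intron 1 (98 bp), in the gene of importin beta, had 6.75 and 7.79 boundary reads per 100 spliced reads in the knockout, against 1.16 and 1.32 in Ly6Chi, a log2 change of 2.52 ± 0.64 (SE; edgeR adjusted p = 0.716). Sirt2 intron 5 (96 bp), in a deacetylase gene, had 5.65 and 9.35 in the knockout, against 2.46 and 1.88 in Ly6Chi. Pik3r2 intron 4 (87 bp), in the gene of a lipid kinase subunit, had 13.3 and 14.7 in the knockout, against 2.08 and 3.88 in Ly6Chi. In these 3 the knockout libraries also exceeded all other libraries.

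Lower in the knockout were introns of Tmc6, Mdm1 and Dnajc2. Tmc6 intron 6 (87 bp) had 3.31 and 0.676 in the knockout, against 14.3 and 11.3 in Ly6Chi. Mdm1 intron 6 (78 bp), in the gene of a centriole protein, had 2 and 6 boundary reads in the knockout, on 77 and 83 spliced reads, against 43 and 16 in Ly6Chi, on 86 and 79. Dnajc2 intron 8 (87 bp), in a ribosome-associated chaperone gene, had 1 and 0 boundary reads in the knockout, against 6 and 6 in Ly6Chi. The pairs do not overlap, in introns chosen by their low p in this comparison. Of all introns tested, 9.93% lay above without overlap and 37.0% below. The adjusted p was 0.716 for each of the 6 introns (edgeR). Expression of the 6 host genes differed between knockout and Ly6Chi by log2 -0.04 to -0.46 (limma adjusted p of 0.36 to 0.94).

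Short introns with a stop in frame or a shift of the frame were compared with open ones, since transcripts that keep an intron with such a stop can be targets of the decay that needs Upf2. The median log2(U/S) of 2307 such introns minus that of 34 open ones was 0.14 higher in the knockout than in Ly6Chi, with an exact permutation p of 0.667 (2 against 2, two-sided). Of the 2307, 1971 shift the frame, most of them without sequence, while all 34 open introns have sequence. The 336 with a stop in frame against the 34 gave 0.089. For the 2307 against the 34, leaving out 1 library gave 0.068 to 0.21. The sign turned with the smaller boundary count in place of U (-0.24) and without introns lacking the exact junction (-0.019).

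In cMoP against MDP, 0 short introns passed edgeR's test, as of all introns (0.0%), with 189 short introns (6.70%) at an unadjusted p under 0.05, beside 8.35% of all. DESeq2 called 0, with 94 (3.33%) at an unadjusted p under 0.05, beside 3.55% of all. After TMM scaling 0 short introns passed, beside 0.0187% of all, 0.0166% in the upward direction. MDP has 1 library and was assumed to vary like the replicated groups. The median log2 change was -0.29 for short and -0.40 for longer introns, and it rested on 1 library. Without cMoP replicate 2 it was -0.015 for short and -0.11 for longer introns, and without replicate 1 -0.70 and -0.85. Without cMoP replicate 1 the call was 250 short introns (8.86%, beside 10.3% of all), of which 247 lower in cMoP (beside 9.98% of all lower). Without replicate 2 it was 3, all higher, beside 0.0187% of all.

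Kmt2b intron 28 (87 bp), in a histone methyltransferase gene, had 5.31 and 4.21 boundary reads per 100 spliced reads in cMoP, against 34.2 in MDP. Slc44a2 intron 8 (97 bp), in a choline transporter-like gene, had 35.9 and 21.7 in cMoP, against 94.8 in MDP, and Pus10 intron 13 (96 bp) had 1.74 and 0.556, against 13.3 in MDP. In all 3 the value of MDP was the highest of the 8 libraries. Introns of Grina and Plcb3 lay higher in cMoP. Grina intron 3 (80 bp) had 13 and 6 boundary reads in cMoP, against 0 beside 133 spliced reads in MDP, and Plcb3 intron 20 (83 bp) had 8 and 7, against 0 beside 110 spliced reads in MDP. The edgeR adjusted p was 0.597 for each of the 5.

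In Ly6Chi against cMoP the median of short introns lay above 0, as did that of longer ones, by an amount that varied with the cMoP library. The share retained was 10.3% ± 0.70 in Ly6Chi and 5.53% ± 3.17 in cMoP (SD, n = 2 each), a difference of 4.77 points with an exact permutation p of 0.33. It was 2.53 points without cMoP replicate 2 and 7.01 points without replicate 1. The 3′ lean was 0.43 and 0.47 in Ly6Chi, against 0.66 and 0.94 in cMoP, and its part in this difference was not tested. Both Ly6Chi libraries lay above both cMoP libraries in log2(U/S) at 1146 of the 2823 short introns (40.6%) and below at 177 (6.27%), beside 35.2% and 9.39% of all introns. The median log2 change was 0.47 for short and 0.37 for longer introns. Without cMoP replicate 2 it was 0.20 and 0.11, and without replicate 1 0.90 and 0.83.

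None of the short introns passed edgeR's test here, beside 0.0145% of all, with 363 short introns (12.9%) at an unadjusted p under 0.05, beside 10.9% of all. DESeq2 called 0, beside 0.0312% of all, with 181 (6.41%) at an unadjusted p under 0.05, beside 5.77% of all. After TMM scaling, which moved the median log2 change of the longer introns to -0.018, 9 short introns passed, 5 higher and 4 lower, beside 0.409% of all (0.17% higher, 0.239% lower). Without cMoP replicate 1 the unscaled call was 513 short introns (18.2%, beside 14.5% of all), 509 of them higher in Ly6Chi (beside 14.1% of all higher). Without replicate 2 it was 1, beside 0.0727% of all.

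Of the 9 that passed after scaling, 5 were higher in Ly6Chi. Copg1 intron 9 (87 bp), in the gene of a coatomer subunit, had 9.70 and 9.96 boundary reads per 100 spliced reads in Ly6Chi, against 1.14 and 1.87 in cMoP, a scaled log2 change of 2.31 ± 0.51 (SE; edgeR adjusted p = 0.027). Ctsd intron 8 (94 bp), in the gene of the lysosomal protease cathepsin D, had 9.62 and 16.4 in Ly6Chi, against 3.68 and 1.94 in cMoP, a scaled change of 1.78 ± 0.33 (edgeR adjusted p = 0.0058). The others were introns of Usp19, a deubiquitinase gene, of Pa2g4 and of the mitochondrial ribosomal protein gene Mrpl2, with scaled changes of 1.61 to 2.07. Groups did not overlap in any of the 5, which were chosen by a test on the same libraries. Of all introns tested, 35.2% had both Ly6Chi libraries above both cMoP libraries without scaling.

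The 4 that were lower lay in Lair1 and in genes of the translation machinery. Lair1 intron 4 (97 bp), in the gene of an inhibitory collagen receptor, had 1.65 and 1.41 in Ly6Chi, against 15.2 and 9.65 in cMoP, a scaled change of -3.43 ± 0.65 (SE; edgeR adjusted p = 0.0060). The Ly6Chi values rest on 2 boundary reads each, and those in cMoP on 40 and 11. Eef2 intron 6, Rps15 intron 3 and Rpl4 intron 8 (90 to 92 bp) changed by -1.15 to -1.68 after scaling, at levels of at most 1.72 boundary reads per 100 spliced reads in any library. Without scaling the same 9 introns had an adjusted p of 0.327 to 0.414 (edgeR). Each passed in only 1 to 3 of its 14 or 15 alternatives, the scaled fit among them. The direction was the same throughout, in fits that share most of their libraries.

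**Figure D4:**
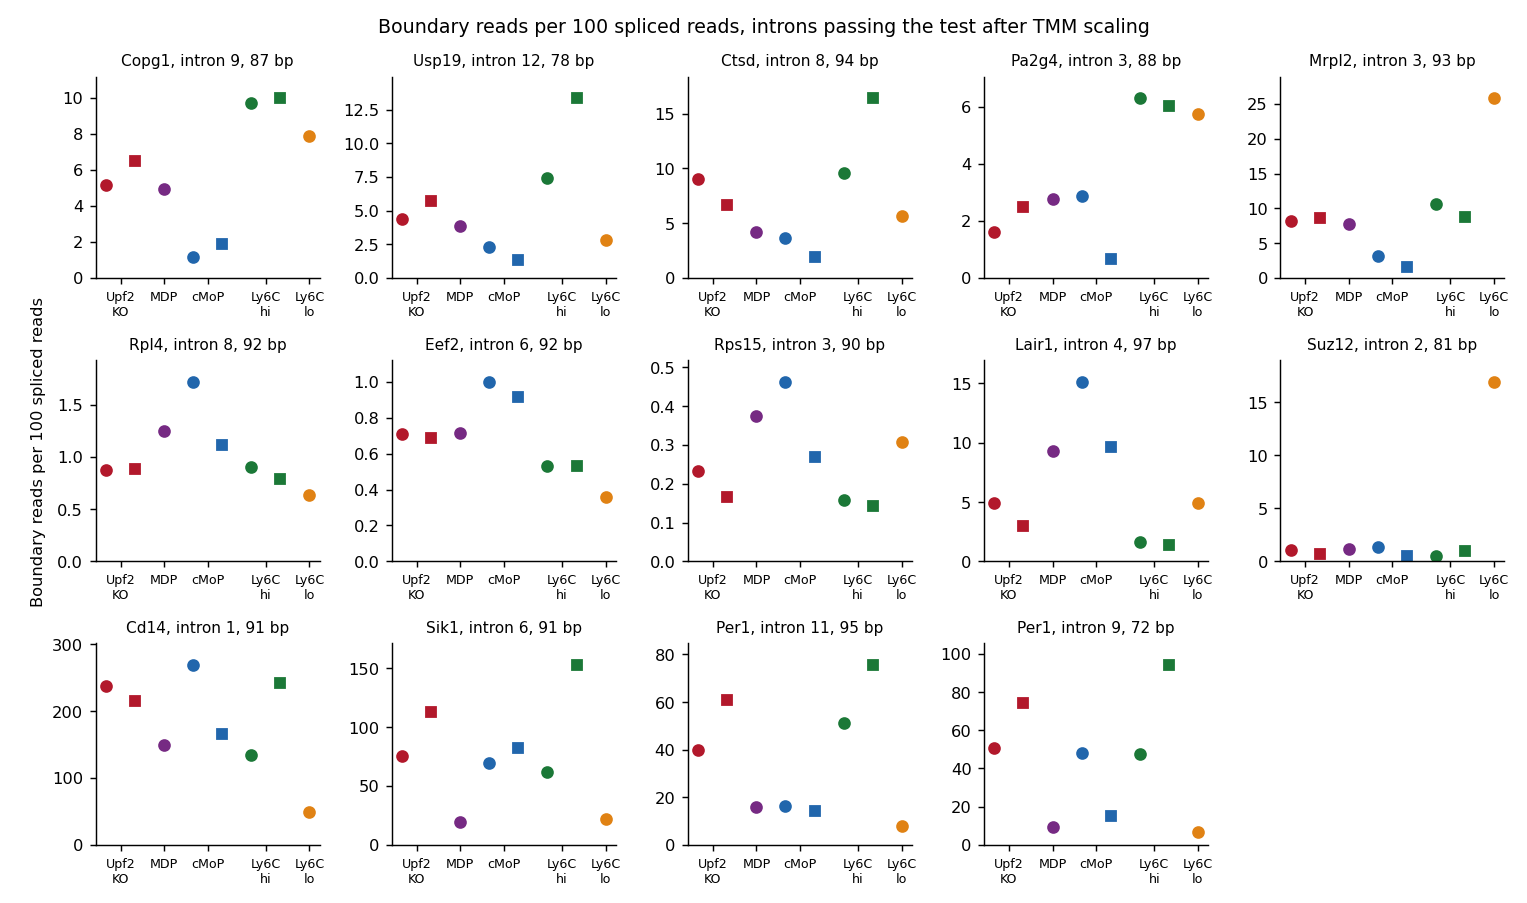
Boundary reads per 100 spliced reads (y axis, from 0, own scale in each panel) in 8 libraries for the 14 short introns that passed edgeR's test after TMM scaling, 9 in Ly6Chi against cMoP (Copg1 to Lair1) and 5 in Ly6Clo against Ly6Chi (Suz12 to Per1). Points are libraries, replicate 2 as squares; both Per1 introns are lowest in Ly6Clo, at 8.05 and 6.75, and Suz12 is highest there, at 16.9.

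In Ly6Clo against Ly6Chi, 0 short introns passed without scaling, as of all introns (0.0%), with 168 (5.95%) at an unadjusted p under 0.05, beside 4.97% of all. DESeq2 called 0, with 73 (2.59%) at an unadjusted p under 0.05, beside 1.71% of all. After scaling 5 passed, 1 higher and 4 lower, beside 0.0623% of all, of which 0.0208% higher and 0.0416% lower. Ly6Clo has 1 library and was assumed to vary like the replicated groups. The median log2 change was 0.052 for short and 0.12 for longer introns. Without cMoP replicate 1 the unscaled call was 17 (0.602%, beside 0.432% of all), and without replicate 2 it was 16 (0.567%, beside 0.42%).

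Of the 5, 4 were lower in Ly6Clo, and 2 of these lay in Per1, a core circadian clock gene. Per1 intron 11 (95 bp) had 8.05 boundary reads per 100 spliced reads in Ly6Clo, against 51.2 and 75.6 in Ly6Chi. Per1 intron 9 (72 bp) had 6.75 in Ly6Clo, against 47.5 and 94.2 in Ly6Chi. The scaled log2 changes were -3.17 ± 0.57 and -3.57 ± 0.58 (SE; edgeR adjusted p = 0.011 and 0.0027). Both introns were also high in the knockout, at 39.7 and 60.9 for intron 11 and 50.8 and 74.3 for intron 9. In MDP they were at 15.8 and 9.09.

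Sik1 intron 6 (91 bp), in a kinase gene that responds to hormones and salt, had 21.5 in Ly6Clo, against 61.7 and 153 in Ly6Chi, and Cd14 intron 1 (91 bp), in the gene of a lipopolysaccharide co-receptor, had 49.7, against 135 and 243 in Ly6Chi. The Ly6Chi replicates lay far apart in both, and Ly6Clo lay below each of them. The scaled log2 changes were -2.50 ± 0.46 and -2.06 ± 0.39 (SE; edgeR adjusted p = 0.015 and 0.021). Without scaling the 5 introns had an adjusted p of 0.608 to 0.948 (edgeR). Each passed in only 3 of its 11 or 12 alternatives, the scaled fit among them. The direction was again the same throughout, in fits that share most of their libraries. Expression of Per1 was 31.3 TPM in Ly6Clo and 12.3 and 24.1 TPM in Ly6Chi, a log2 difference of 0.82 ± 0.51 (SE, limma adjusted p = 0.36), and that of Sik1 89 TPM in Ly6Clo and 24.1 and 51.2 TPM in Ly6Chi (1.31 ± 0.69, limma adjusted p = 0.28).

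Suz12 intron 2 (81 bp), in the gene of a Polycomb subunit, was higher, with 16.9 in Ly6Clo, against 0.490 and 0.990 in Ly6Chi. Its scaled log2 change was 4.34 ± 0.79 (SE; edgeR adjusted p = 0.013), on 21 boundary reads in Ly6Clo and 1 and 2 in Ly6Chi. All other libraries lay between 0.521 and 1.33. Next in p were introns of Ppia (94 bp), the cyclophilin A gene, and Hnrnpa3 (78 bp), an RNA-binding protein gene, which did not pass in this comparison. Ppia intron 2 had 0.610 in Ly6Clo, against 0.132 and 0.166 in Ly6Chi, and Hnrnpa3 intron 3 had 8.78, against 2.71 and 3.05, with Ly6Clo the highest of the 8 libraries for both.

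Over the 4 control stages together, edgeR's test called 0 short introns without scaling, beside 0.0125% of all, with 286 (10.1%) at an unadjusted p under 0.05, beside 9.22% of all. DESeq2 called 1 short intron, beside 0.081% of all, with 141 (4.99%) at an unadjusted p under 0.05, beside 4.49% of all. After scaling 37 short introns passed (1.31%), beside 1.07% of all.

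Expression of the host genes of short introns was compared over the same groups. In the knockout against Ly6Chi, 0 of 1750 host genes tested passed limma's test, beside 0.00762% of 13126 genes, and 0 under each of the other settings tried, with 228 hosts (13%) at an unadjusted p under 0.05, beside 14.6% of all genes. In cMoP against MDP 32 hosts passed, 17 higher and 15 lower in cMoP, beside 3.87% of all genes (1.35% higher, 2.52% lower). In Ly6Chi against cMoP 1020 hosts passed (58.3%), 592 higher and 428 lower in Ly6Chi, beside 55.5% of all genes (32.3% higher, 23.3% lower). In Ly6Clo against Ly6Chi 157 passed, 47 higher and 110 lower in Ly6Clo, beside 13% of all genes (5.9% higher, 7.12% lower). Centring each library on its median moved these splits to 38 higher and 12 lower in cMoP, 460 higher and 608 lower in Ly6Chi, and 87 higher and 128 lower in Ly6Clo. Of all genes, 3.11% were then higher and 2.25% lower in cMoP, 25.6% and 34.0% in Ly6Chi, and 7.99% and 8.12% in Ly6Clo. Before centring the median of all genes was -0.28, 0.19 and 0.037 log2 units.

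Among hosts of introns named above, Pa2g4 fell in Ly6Chi, to 75.6 and 73.8 TPM, against 340 and 584 TPM in cMoP, a log2 change of -2.56 ± 0.25 (SE, limma adjusted p = 0.00093). Its intron 3 carried 34 and 36 boundary reads in Ly6Chi, against 103 and 38 in cMoP. Ctsd rose in Ly6Chi by 0.79 ± 0.14 (SE, limma adjusted p = 0.0060), while expression of Copg1 changed by -0.20 ± 0.14 (limma adjusted p = 0.26). Lair1 rose in Ly6Clo, to 179 TPM, against 19.5 and 22.6 TPM in Ly6Chi, a log2 change of 3.04 ± 0.40 (limma adjusted p = 0.0069). In Ly6Chi against cMoP, the comparison that called its intron, Lair1 changed by -0.35 ± 0.32 (limma adjusted p = 0.38). The other hosts called there changed by -0.97 (Mrpl2), 0.66 (Usp19), -0.75 (Rps15), -0.83 (Rpl4) and -0.15 (Eef2). In Pa2g4 the ratio of boundary to spliced reads rose while its expression fell. Its boundary reads in Ly6Chi, not scaled for depth, were well below those of cMoP replicate 1 and close to those of replicate 2. In Ctsd the ratio and the expression both rose.

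Of the 38 splicing factor genes, 18 were lower and 2 higher in Ly6Chi than in cMoP by limma, beside 23.3% of all genes lower and 32.3% higher. The median log2 change of the list was -0.22 against 0.19 for all genes. With median centring 22 were lower and 1 higher, beside 34.0% of all genes lower and 25.6% higher. U2af1, which encodes the small subunit that reads the 3′ splice site, fell to 117 and 122 TPM in Ly6Chi, against 262 and 396 TPM in cMoP (log2 -1.42 ± 0.20, SE, limma adjusted p = 0.0029). Srsf7 fell by 1.39 ± 0.18 and Srsf3, both SR protein genes, by 0.99 ± 0.15. Sf3b1 rose by 0.97 ± 0.15 and Rbm5 by 0.80 ± 0.24. In the knockout against Ly6Chi 0 of the 38 passed by limma, with 5 (13.2%) at an unadjusted p under 0.05, beside 14.6% of all genes. In cMoP against MDP 0 passed, with 12 (31.6%) at an unadjusted p under 0.05, beside 26.9% of all genes. Without cMoP replicate 1, 1 was higher and 15 were lower there, beside 8.11% of all genes higher and 29.4% lower. In Ly6Clo against Ly6Chi 1 was lower (Snrpa, log2 -0.77), a call lost with median centring, which called 1 higher and 0 lower. Without cMoP replicate 1 or 2, 6 were higher and 4 lower in Ly6Clo, beside 13.6% or 13.5% of all genes higher and 14.5% or 14.3% lower.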

How the data were processed

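Stranded polyA libraries were sequenced as 100-bp read pairs, per the labels' protocols. The submitters' processing notes name FastQC, Trimmomatic, STAR 2.5.2a, RSEM and the builds mm10 and hg38, and the making of the intron tables is not stated there. The deposited intron tables hold, per intron, counts of boundary and spliced reads, a depth signal and a retention ratio, which is a fraction made by the authors. The ratio was recomputed within 0.0001 for 96.7% to 98.0% of introns in each library. The deposited expression table is named FPKM, but its columns each have the fixed sum of TPM, so the authors' values were treated as TPM.

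The members and lists were chosen with earlier results of these data known. Boundary counts U, the sum over both ends, were tested against spliced counts S in edgeR 4.0.16 (quasi-likelihood, R 4.3.3) over 48132 introns with U of at least 20 over all libraries, with all 8 libraries in 1 fit and 3 residual degrees of freedom. DESeq2 1.42.0 and TMM scaling of U and S apart were alternatives, and so were the smaller or larger boundary count, other length and depth limits and each replicate left out. Expression was tested with limma 3.58.1 on log2(TPM + 1) over 13126 genes that reached 1 TPM in 2 or more libraries, and such a fold change understates that of low genes. Adjustment was by Benjamini-Hochberg with a threshold of 0.05. Medians of log2(U/S) used 0.5 as pseudocount. On simulated data for the knockout against Ly6Chi over 48132 introns, 59 of 100 introns changed 4-fold and 88 of 100 changed 8-fold were recovered. The changed introns were of any length and drawn only from those with more boundary reads. The spread was set, not estimated from the data, and no simulated library stood apart. These shares therefore do not give the power of the test for short introns in the real data.

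Introns were named by rule: per comparison, when none passed, the 3 lowest p in each direction; the 5 highest and 3 lowest mean ratios where no library had fewer than 10 spliced reads; the 5 shortest; the 3 with most spliced reads; those in splicing factor genes; and the 3 genes with most short introns. Those that passed only after scaling, and Scrib, Cpsf1, Gramd4, Mau2 and Mdp1, were named after their values were seen. One intron that the rule names is not reported here. Sequences came from GENCODE mouse release 21 transcripts (GRCm38).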

Additional observations from a re-analysis of the deposited data

How the results depend on the processing

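The excess of short over all longer introns in log2(U/S) kept its sign and its p of 0.0078, the smallest possible, under every alternative that keeps all 8 libraries. Its size moved, to 0.19 against longer introns of up to 200 bp, 0.28 with the larger boundary count, 0.98 with the doubled smaller one, 1.10 with 80 bp as upper length and 1.46 without introns that carry a warning. Where the upper length was changed, here and below, the longer introns were those above the new limit. The comparison within genes did not keep its value. It was 0.11 with the doubled smaller boundary count, 0.14 against longer introns of up to 200 bp, 0.27 without introns that carry a warning and 0.57 with 80 bp as upper length, each past the threshold. It was below 0 and past the threshold with the larger boundary count (-0.059, exact sign-flip p = 0.016) and with 120 bp as upper length (-0.12, exact sign-flip p = 0.0078), and -0.016 with U + S of at least 50. Leaving out 1 replicate each gave -0.012 to 0.0050, with -0.0011 without cMoP replicate 2, -0.0013 without Ly6Chi replicate 2, -0.0041 without knockout replicate 1 and -0.012 without knockout replicate 2. The cause was not tested. The stop in frame comparison turned to -0.24 and -0.019, as given above.

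Calls of short introns, 0 in each comparison, became 9 (Ly6Chi against cMoP, 0.319%), 5 (Ly6Clo against Ly6Chi, 0.177%) and 37 (over the stages, 1.31%) after scaling. The shares of all introns were then 0.409%, 0.0623% and 1.07%. Over the stages the calls of short introns were 3 with no minimum of U (0.09%, beside 0.0944% of longer introns). With DESeq2 the call was 1 (0.0354%, beside 0.081% of all). With 1 replicate left out they ranged from 0 to 15 for the knockout, 0 to 250 in cMoP against MDP, 0 to 513 in Ly6Chi against cMoP, 0 to 17 in Ly6Clo against Ly6Chi and 0 to 482 over the stages; a group left with 1 library was assumed to vary like the others. Host genes called in cMoP against MDP were 17 with a pseudocount of 0.1, 50 with no filter, 50 with median centring and 6 to 713 with 1 replicate left out. With 1 replicate left out the range was 475 to 1249 in Ly6Chi against cMoP and 44 to 455 in Ly6Clo against Ly6Chi.

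Same-numbered replicates did not deviate together (r of -0.014, -0.061 and -0.043), so the numbers were not taken to pair the samples. With the replicate block 0 short introns passed in the knockout against Ly6Chi and 0 in Ly6Chi against cMoP, beside 0.00221% and 0.0110% of longer introns. At an unadjusted p under 0.05 by edgeR there were 89 (3.15%) and 294 (10.4%), beside 5.46% and 8.99% of longer introns. By limma 0 host genes passed in the first comparison, beside 0% of all genes. In the second 873 passed (49.9%), beside 48.2% of all genes. A median of 6 to 12 boundary reads per short intron limits what single introns can show. Alternatives that need the exact junction, and those restricted to numbered libraries, were chosen after seeing the data.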

Other observations

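Over the control stages, 37 short introns passed edgeR's test after TMM scaling, chosen here after their values were seen. Ddx3y intron 13 (69 bp), in the Y-linked gene of an RNA helicase, had a ratio of 0.492 in Ly6Clo, against 0.212 and 0.187 in the Ly6Chi libraries, 0.192 and 0.106 in the cMoP libraries and 0.295 in MDP. Cdk16 intron 15 (80 bp), in a kinase gene, had 0.384 in Ly6Clo, against 0.282 and 0.265 in Ly6Chi, 0.132 and 0.0642 in cMoP and 0.183 in MDP. Tubg1 intron 9 (80 bp), in the gene of gamma-tubulin, had 0.189 in Ly6Clo and at most 0.0514 in the other 5 control libraries. In all 3, Ly6Clo was the highest of the 8 libraries.

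Odc1 intron 9 (81 bp), in the gene of the rate-limiting enzyme of polyamine synthesis, had 0.269 and 0.212 in the knockout. The control stages had 0.0555 (MDP), 0.20 and 0.0446 (cMoP), 0.260 and 0.314 (Ly6Chi) and 0.148 (Ly6Clo). The replicates of cMoP lay apart, with replicate 2 the lowest of the 8 libraries.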
